A study of Mus musculus with 17 samples.

Results

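Whether tau acts differently on hippocampal gene expression when Acss2 is absent was examined as a genotype by tau interaction in 12 of the 17 RNA sequencing libraries of the series. These were all of its male libraries, numbered as in their labels: 3 from wild-type mice given saline (WT PBS 791, 792 and 793), 3 from wild-type mice given tau (WT Tau 771, 772 and 773), 3 from knockout mice given saline (KO PBS 751, 752 and 753) and 3 from knockout mice given tau (KO Tau 711, 712 and 713). The study's text counts fewer KO Tau libraries for its bulk RNA sequencing than were deposited, and does not say which was left out. All 3 deposited KO Tau libraries were used here. The KO mice carried a constitutive loss of Acss2 (genotype label ACSS2KO), and KO and WT mice were bred by homozygous crosses from one F1 generation. All mice were injected at 6 months of age on the right side of the dorsal hippocampus, either with PBS or with AD tau, that is pathological tau extracted from human Alzheimer's disease (AD) brain, and the tissue was studied 6 months later. Poly(A) RNA came from slices through the dentate gyrus and the CA1 to CA3 fields. The 5 remaining libraries came from female mice given tau, for which there was no PBS group. The interaction is (KO Tau − KO PBS) − (WT Tau − WT PBS) on the log2 scale: it is 0 where tau has the same effect in both genotypes, positive where KO Tau lies above what the other 3 groups add up to, and negative where it lies below.

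Acss2 encodes acetyl-CoA synthetase 2, which joins acetate to coenzyme A. Acetyl-CoA is the donor for histone acetylation. In neurons the enzyme is mostly nuclear, by the study's text, and there it feeds acetylation at genes that neuronal activity switches on. Tau, the product of Mapt, is a microtubule-associated protein of axons that becomes highly phosphorylated and aggregates in Alzheimer's disease, and aggregates from diseased brain can seed the aggregation of a mouse's own tau. An interaction contrast isolates what the combination does beyond the sum of the separate effects, and it draws on the error of all 4 groups at once.

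The 12 libraries held 15853495 to 21847844 counts, and 3 counts, the most that a listed 0 could hide, were worth 0.137 to 0.189 CPM (read counts scaled to a common library total). Of the 24498 symbols in the table, 15098 passed the filter on low counts and were tested. The targeted gene followed the labels: Acss2 (chr2:155517948-155585724, GRCm38) stood at 49.2, 54.6 and 53.1 CPM in WT PBS, 51.7, 52.2 and 44.0 CPM in WT Tau, 3.15, 4.17 and 3.85 CPM in KO PBS and 5.74, 3.08 and 4.33 CPM in KO Tau. All 6 KO libraries lay far below all 6 WT libraries. The KO libraries varied more among themselves than the WT libraries did. The median distance of a gene from its group mean was 0.065 to 0.082 log2 CPM in the 6 WT libraries, 0.12 to 0.15 in KO PBS and 0.11 to 0.21 in KO Tau, highest in KO Tau 711. On the first principal component of these deviations, which held 47.5% of their variance, KO Tau 711 (0.57) and KO PBS 752 (−0.54) lay at opposite ends. The medians of the gene lists below are therefore given with and without those 2 libraries.

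No gene passed the false discovery rate (FDR) of 0.05 for the interaction in edgeR, which is 0% of the 15098 genes tested. The smallest FDR was 0.996. At an unadjusted p under 0.05 there were 631 genes, 4.18% of those tested, 291 with a positive and 340 with a negative interaction. In DESeq2 on the same 12 libraries 0 genes passed (0%). Its smallest adjusted p was 0.0549, and 593 genes had an unadjusted p under 0.05. The estimates were centred, with 7579 genes above 0, 7519 below 0 and a median of 0.00.

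The precision behind this count differed between genes. The standard error (SE) of the interaction had a median of 0.22 on the log2 scale, 0.18 over the 10097 genes with a mean of at least 10 CPM and 0.42 over the other 5001. For 10670 genes (70.7%) the 95% confidence interval of the interaction lay within a 2-fold difference in either direction. For 6161 genes (40.8%) it lay within a 1.5-fold difference. For the remaining genes a difference of that size was not excluded by these 12 libraries.

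The effect of tau, which the interaction compares, was estimated from separate libraries in each genotype. Over genes the log2 fold changes of Tau against PBS had an interquartile width of 0.28 in KO and 0.19 in WT, and 60.4% of genes had the larger absolute change in KO. At an unadjusted p under 0.05 by edgeR there were 1201 genes for tau in KO and 281 for tau in WT, of 15098 tested. Both counts rest on an error estimate shared by the genotypes, with a median SE of 0.16 in each, although the KO libraries spread more. The 2 counts therefore do not compare the sizes of the tau responses. The same direction in both genotypes was found for 52.1% of genes (7859), and across genes the Pearson correlation of the 2 effects was 0.04 (Spearman 0.01), a description over genes, which are not independent replicates. The larger width in KO stands beside the larger spread among KO libraries described above, and the part of that spread in it was not tested.

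**Figure D1:**
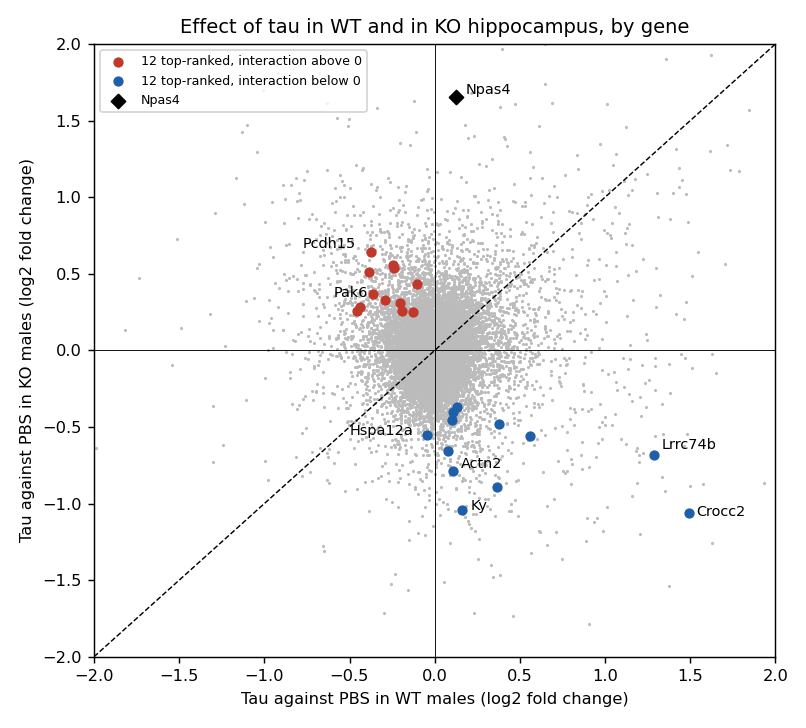
Log2 fold change of Tau against PBS in WT males (horizontal axis) and KO males (vertical axis) for the tested genes, 3 libraries per group, with the dashed line marking equal effects; 40 genes beyond a log2 change of 2 on either axis are not drawn. The 12 genes ranked first with a positive interaction (red) lie above the line and the 12 ranked first with a negative interaction (blue) below it, as their choice requires, and Npas4 (black diamond) lies at 1.65 in KO and 0.12 in WT.

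Genes were ranked by their unadjusted p in edgeR, leaving out those with a mean under 1 CPM and predicted, Rik and mitochondrial genes. Since no gene passed, the first 12 genes in each direction are described as a ranking and not as calls. The interaction itself chose these genes, so that its size and p in them are descriptions. In all 12 genes ranked on the negative side the estimate for tau was below 0 in KO, and in 11 of them it was above 0 in WT, Hspa12a being the exception. In all 12 genes ranked on the positive side the estimate was above 0 in KO and below 0 in WT.

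Actn2 (chr13:12269426-12340760, minus strand), which encodes alpha-actinin 2, an actin crosslinker of muscle Z discs that also sits in dendritic spines and binds NMDA receptors, had the smallest p of all genes tested. It stood at 11.2, 11.7 and 12.1 CPM in WT PBS, 11.5, 12.5 and 14.0 CPM in WT Tau, 15.5, 15.2 and 14.0 CPM in KO PBS and 9.65, 8.44 and 8.66 CPM in KO Tau. The 3 KO Tau libraries were the lowest of the 12, and KO PBS held the highest values, overlapping WT Tau only in that WT Tau 773 lay just above KO PBS 753. The interaction was −0.89 (SE 0.16, unadjusted p = 0.000155, FDR 0.996 by edgeR), with −0.79 for tau in KO and 0.11 for tau in WT.

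Hspa12a (chr19:58795750-58943654, minus strand), a distant member of the Hsp70 chaperone family, had its 2 KO groups on either side of all WT libraries. It was at 342, 334 and 344 CPM in WT PBS and at 331, 334 and 333 CPM in WT Tau. In KO PBS it was at 409, 358 and 357 CPM and in KO Tau at 250, 282 and 259 CPM. KO PBS lay above all WT libraries and KO Tau below all of them, with no overlap. The interaction was −0.50 (SE 0.12), made up of −0.55 for tau in KO and −0.05 for tau in WT.

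A pair of genes with very low counts had the largest estimates on the ranked list. Crocc2, a relative of the ciliary rootlet protein rootletin, stood at 0.329, 0.620 and 0.537 CPM in WT PBS, 1.13, 1.92 and 1.23 CPM in WT Tau, 1.57, 0.786 and 2.15 CPM in KO PBS and 0.757, 0.730 and 0.753 CPM in KO Tau. WT Tau exceeded WT PBS in every library, and KO Tau was under KO PBS in every library, if only just under KO PBS 752. The interaction was −2.56 (SE 0.55). Lrrc74b, a leucine-rich repeat gene of little-known function, showed the same layout, with 0.329 to 0.827 CPM in WT PBS, 1.13 to 1.92 in WT Tau, 1.15 to 1.37 in KO PBS and 0.694 to 0.941 in KO Tau, and an interaction of −1.97 (SE 0.47). The ependymal marker list had a negative median interaction as well (−1.09, 0 of 9 above 0), and its part in these values was not tested.

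Among the other ranked genes with a negative interaction were Neto1, Slc8a1 and Fat3. Neto1, an auxiliary subunit of kainate and NMDA receptors, was at 62.4, 57.1 and 60.7 CPM in KO Tau, under all 9 other libraries, which ran from 73.4 to 110 CPM (interaction −0.74, SE 0.19). Slc8a1, a sodium/calcium exchanger of the plasma membrane, was at 224, 267 and 241 CPM in KO Tau and at 315, 302 and 297 CPM in KO PBS (−0.50, SE 0.13). Its KO Tau value of 267 CPM lay within the WT PBS range of 258 to 275 CPM, and the other two lay under it. Fat3, an atypical cadherin that shapes dendrites, was at 63.1, 53.2 and 55.0 CPM in KO Tau against 69.3, 74.7 and 83.2 CPM in KO PBS (−0.55, SE 0.14).

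The rest of the negative side was made up of Ky, Rerg, Fgf5, Cd24a and Ankrd29. Ky, a muscle protein needed at the neuromuscular junction, was at 2.46, 1.67 and 2.54 CPM in KO Tau, below the other 9 libraries, which held 3.0 to 4.92 CPM (−1.20, SE 0.29). Rerg, a Ras-like growth inhibitor, was at 13.0, 10.2 and 10.1 CPM in KO Tau, while KO PBS was split between 24.9 and 22.4 CPM in libraries 751 and 753 and 12.4 CPM in library 752 (−1.26, SE 0.32). Fgf5, a fibroblast growth factor, was at 3.85, 3.18 and 3.29 CPM in KO Tau and 5.07, 4.53 and 4.30 CPM in KO PBS (−0.86, SE 0.21). Cd24a, a surface glycoprotein of immature neurons and ependymal cells, had an interaction of −1.12 (SE 0.29) and Ankrd29 of −0.51 (SE 0.13).

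Of the ranked genes on the positive side, the smallest p belonged to Pak6 (chr2:118663303-118698020, plus strand), a kinase of the p21-activated family. It stood at 88.5, 78.5 and 84.4 CPM in WT PBS, 67.7, 59.8 and 79.3 CPM in WT Tau, 67.5, 56.0 and 59.5 CPM in KO PBS and 75.7, 84.4 and 77.9 CPM in KO Tau. KO Tau lay at the level of WT PBS, and both single-hit groups lay lower, with WT Tau 773 reaching into the KO Tau range. The interaction was 0.63 (SE 0.16, unadjusted p = 0.00234, FDR 0.996 by edgeR), with 0.33 for tau in KO and −0.29 for tau in WT.

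This layout, with KO Tau near WT PBS and the 2 other groups below, was shared by several of the ranked genes. Pcdh15, the protocadherin of hair cell tip links, was at 13.8, 10.0 and 12.8 CPM in WT PBS, 9.84, 8.0 and 10.6 CPM in WT Tau, 6.04, 7.38 and 9.06 CPM in KO PBS and 9.27, 15.1 and 11.8 CPM in KO Tau (interaction 1.01, SE 0.28). KO Tau lay above KO PBS in every library but overlapped WT Tau. Car11, a carbonic anhydrase-related protein without enzyme activity, was at 149, 146 and 152 CPM in WT PBS, 124, 127 and 144 CPM in WT Tau, 117, 131 and 131 CPM in KO PBS and 171, 139 and 157 CPM in KO Tau (0.45, SE 0.14).

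For B4galt2, a galactosyltransferase of the Golgi, KO Tau at 83.8, 86.6 and 85.4 CPM lay above the other 9 libraries, which held 58.5 to 81.2 CPM (interaction 0.51, SE 0.15). The same was true of Pkig, an inhibitor of protein kinase A, at 68.4, 69.7 and 65.7 CPM in KO Tau against 52.9 to 65.4 CPM in the rest (0.37, SE 0.11). Over all tested genes, KO Tau lay above the other 9 libraries for 131 (0.868%) and below them for 115 (0.762%), and of the ranked genes it did so for 2 of 12 on the positive side and 4 of 12 on the negative side (Actn2, Hspa12a, Ky and Neto1). Since the interaction chose those 24 genes, nothing is read from these counts.

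The remaining positive genes were Tmem164, which encodes a membrane protein (0.80, SE 0.23), Stxbp2, a Munc18 protein of vesicle release outside neurons (0.90, SE 0.26), Kiss1r, the kisspeptin receptor (0.71, SE 0.21), Dennd6b, an exchange factor for Rab proteins (0.72, SE 0.22), Cyp4f15, a cytochrome P450 (0.73, SE 0.22), Csad, which makes the taurine precursor hypotaurine (0.54, SE 0.16), and Ppm1m, a protein phosphatase (0.78, SE 0.24). A complete reversal, with every KO Tau library above every KO PBS library and every WT Tau library below every WT PBS library, occurred in 28 genes (0.185% of those tested), among them Tmem164, Kiss1r and Car11. The opposite reversal occurred in 22 genes (0.146%), among them Crocc2, Lrrc74b, Fgf5 and Cd24a.

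**Figure D2:**
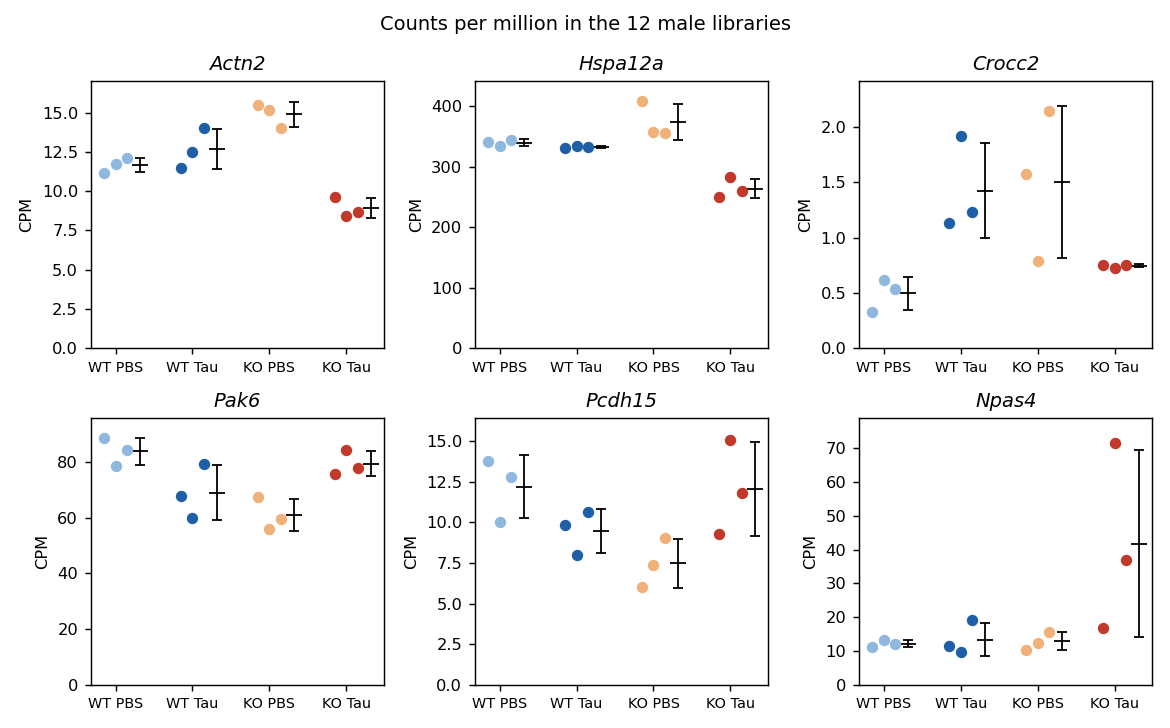
CPM (vertical axis, from 0) of 6 genes in the 12 male libraries, with 1 point per library in the order of its number and a black bar for the mean and SD of 3 libraries. KO Tau is lowest in Actn2 and Hspa12a, KO Tau stands near WT PBS in Pak6 and Pcdh15, and the 3 KO Tau values of Npas4 run from 16.8 to 71.4 CPM.

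Of the 13 genes that were always described because the study's text deals with them, 12 had a 95% confidence interval of the interaction that included 0 and 1, Npas4, had an unadjusted p under 0.05. Npas4 (chr19:4984355-4990316, minus strand) encodes a transcription factor that calcium entry switches on in active neurons. It stood at 11.3, 13.3 and 12.1 CPM in WT PBS, 11.4, 9.75 and 19.0 CPM in WT Tau, 10.4, 12.5 and 15.7 CPM in KO PBS and 16.8, 71.4 and 37.0 CPM in KO Tau. KO Tau 712 and 713 were the highest of the 12, while KO Tau 711 lay below WT Tau 773. The interaction was 1.53 (SE 0.59, 95% confidence interval 0.23 to 2.82, unadjusted p = 0.0248, FDR 0.996 by edgeR), made up of 1.65 for tau in KO and 0.12 for tau in WT. It was 0.90 without KO Tau 712 and 1.90 without KO Tau 711. In females given tau only the genotypes can be compared. There Npas4 was at 2.84 and 8.33 CPM in WT and at 14.9, 10.1 and 9.83 CPM in KO, with an FDR of 0.994 by edgeR. How many of all genes are ordered in this way in the female libraries was not counted, and nothing is read from the order.

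The promoter of Npas4 is shown for its matches to GACGTC, the core of the cAMP response element. The full element, which it did not hold, is a site bound by CREB, and CREB-binding protein, a histone acetyltransferase, is recruited by CREB at activity genes. The 250 bases before its start (chr19:4989972-4990221, minus strand, RefSeq on GRCm38.p6) are set beside those of Actn2 (chr13:12340733-12340982, minus strand) and of Hspa12a (chr19:58943673-58943922, minus strand, the first of 2 starts in the table), with capitals marking each match to the letters GACGTC.
Npas4: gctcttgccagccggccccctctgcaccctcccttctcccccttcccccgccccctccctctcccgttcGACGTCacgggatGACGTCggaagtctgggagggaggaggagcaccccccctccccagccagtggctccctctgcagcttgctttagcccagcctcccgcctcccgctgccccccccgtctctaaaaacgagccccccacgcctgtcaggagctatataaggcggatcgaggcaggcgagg
Actn2: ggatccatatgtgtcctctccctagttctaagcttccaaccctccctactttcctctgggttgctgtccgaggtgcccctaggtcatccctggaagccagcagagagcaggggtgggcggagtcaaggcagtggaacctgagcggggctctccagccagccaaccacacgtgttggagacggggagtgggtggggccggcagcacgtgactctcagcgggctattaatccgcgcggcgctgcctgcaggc
Hspa12a: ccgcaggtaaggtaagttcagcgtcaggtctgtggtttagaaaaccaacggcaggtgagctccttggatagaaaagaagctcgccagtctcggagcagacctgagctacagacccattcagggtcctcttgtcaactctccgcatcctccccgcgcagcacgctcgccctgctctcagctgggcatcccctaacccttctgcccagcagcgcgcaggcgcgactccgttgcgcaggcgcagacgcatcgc
On both strands, windows from 250 bases before to 50 bases after the start held none of TGACGTCA (the full cAMP response element, in 1.79% of all 32851 windows), TGANTCA (the AP-1 site, 7.81%), GTTGCCATG (part of the Rfx site, 0.773%) or GTGGGAA (an Rbpj site, 6.38%) in any of the 3 genes. The shorter core GACGTC, which was chosen after these sequences were seen and lies within the full element, occurred 2 times before Npas4, beginning 181 and 168 bases before the start, and is present in 4.4% of all windows. A match, or the lack of one, concerns a string of letters and is no measurement of binding. The starts are those of RefSeq, while the gene positions given above are those of GENCODE, and the 2 differ. The Npas4 window lies within the GENCODE span of the gene, and the Actn2 window overlaps the end of its span.

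The regulators whose motifs the study discusses gave no interaction beyond their error. Rfx3, a factor of ciliated cells and dentate granule cells, was at 50.5, 47.7 and 41.1 CPM in WT PBS and 47.5, 48.8 and 54.8 CPM in WT Tau. Its KO values were wider, at 75.8, 18.2 and 29.7 CPM in KO PBS and 63.8, 29.7 and 30.8 CPM in KO Tau, so that the interaction of −0.15 had an SE of 0.62. Those KO values followed the order of the dentate granule list given below, of which Rfx3 is a member. Rfx5, an activator of MHC class II genes, had an interaction of 0.24 (SE 0.15), Rfx7 of −0.06 (SE 0.19) and Rbpj, the effector of Notch signalling, of −0.10 (SE 0.22).

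Among the genes of neuronal wiring, Reln, the secreted guide of neuronal positioning, had an interaction of 0.47 (SE 0.39), and Dab1, its intracellular adaptor, of −0.03 (SE 0.19). Values for the others were 0.25 (SE 0.19) for Sema3c, a secreted guidance cue, 0.26 (SE 0.34) for the kainate receptor subunit Grik1, −0.18 (SE 0.34) for Lingo1, an inhibitor of myelination, and −0.23 (SE 0.25) for the adhesion molecule Ncam2. Mapt, the source of endogenous tau, was estimated most closely of these genes, at 0.01 with a 95% confidence interval of −0.29 to 0.31. Its CPM ran from 567 in KO Tau 711 to 729 in KO Tau 712, and the other 10 libraries lay between.

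Gene lists were described by how many members passed, the sign of their estimates and their median, which was 0.00 over all tested genes. In each list 0 members passed the FDR in edgeR. The fit without KO Tau 711 and KO PBS 752 is called the 10-library fit here, and it was chosen after the data were seen. It called 3.07% of its genes higher and 3.78% lower, against which the counts of called members below are to be read. Among enzymes that make acetyl-CoA, 6 of 12 estimates were above 0 with a median of 0.00 (0.03 in the 10-library fit). Crat, the carnitine acetyltransferase, had the smallest p of these (0.36, SE 0.13, unadjusted p = 0.018), Acly, the citrate-dependent route to acetyl-CoA, was at −0.10 (SE 0.18) and Acss1, the mitochondrial counterpart of the deleted enzyme, at 0.20 (SE 0.31). Writers, erasers and readers of histone acetylation had 16 of 26 above 0 and a median of 0.06 (0.04 in the 10-library fit). Of these the acetyltransferases Ep300 (−0.18, SE 0.15) and Crebbp (−0.01, SE 0.13) lay within 2 SE of 0, and the deacetylases Hdac5 (0.42, SE 0.18) and Hdac6 (0.31, SE 0.14) had unadjusted p-values of 0.0397 and 0.0429. In the list of sterol and fatty acid synthesis, which uses cytosolic acetyl-CoA, 7 of 25 were above 0, with a median of −0.07 that turned to 0.10 in the 10-library fit.

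The immediate early genes, to which Npas4 belongs, lay on both sides of 0. Of 27, 14 were above 0 and the median was 0.05. The median turned sign in 6 of the 12 fits with 1 library left out, from −0.28 without KO Tau 712 to 0.22 without KO Tau 711. It was 0.20 in the 10-library fit, with 1 called higher and 2 lower. Fos had an interaction of 0.77 (SE 0.78), Egr1 of 0.25 (SE 0.55) and Arc, the synaptic plasticity gene, of −0.58 (SE 0.35). Dusp5, a phosphatase that inactivates ERK, lay the other way at −0.96 (SE 0.27, unadjusted p = 0.00452): it was at 6.12, 6.41 and 9.41 CPM in KO Tau, below the other 9 libraries, which held 10.9 to 19.0 CPM. Of 19 late effectors of activity 5 were above 0 and the median was −0.32, between −0.45 and −0.24 with 1 library left out. In the 10-library fit it was −0.10, with 4 of the 19 called higher and 1 lower.

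Glutamate receptor subunits had 7 of 15 above 0 and a median of −0.10, and in the 10-library fit the median was −0.12 with 3 called lower. Grik4, a kainate receptor subunit of CA3, was at −0.92 (SE 0.36) and Grin2b, an NMDA receptor subunit, at −0.60 (SE 0.25), with unadjusted p-values of 0.0248 and 0.0351. Postsynaptic scaffold genes (12 of 18 above 0, median 0.08), vesicle release genes (8 of 26, −0.11), microtubule-associated proteins (9 of 16, 0.01) and tau kinases and phosphatases (11 of 25, −0.03) lay within about 0.1 of the median of all genes. In the 10-library fit the scaffold median turned to −0.15, with 1 called higher and 1 lower. The vesicle release median turned to 0.19 in that fit, with 3 release genes called higher. The median of microtubule-associated proteins was 0.24 there, with 2 called higher and 1 lower, and that of tau kinases and phosphatases −0.02, with 2 called higher.

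Of the heat shock proteins 3 of 20 were above 0 and the median was −0.21, with Hspa5, the chaperone of the endoplasmic reticulum, at −0.39 (SE 0.19) and Hsph1 at −0.37 (SE 0.19). The heat shock median was −0.08 without KO Tau 711 and −0.34 without KO Tau 712. In the 10-library fit it was −0.14, with 1 called lower. The unfolded protein response list had 6 of 18 above 0 and a median of −0.12. It was −0.04 without KO Tau 711, −0.26 without KO Tau 712 and −0.10 in the 10-library fit, with 1 called lower in the last.

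Disease-associated microglial genes had 7 of 19 above 0 and a median of −0.10. It was 0.09 without KO PBS 753 and −0.32 in the 10-library fit, with 2 called lower. Reactive astrocyte genes had 4 of 11 above 0 and a median of −0.19, which ran from −0.47 without KO PBS 752 to −0.02 without KO Tau 713. In the 10-library fit that median was −0.52, with 3 called lower. Interferon response genes had 8 of 18 above 0 and a median of −0.02, which ran from −0.10 to 0.15 with 1 library left out and was 0.02 in the 10-library fit.

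Cytosolic ribosomal proteins had 60 of 64 above 0 with a median of 0.24, which was 0.06 without KO Tau 711 and −0.03 in the 10-library fit. Their summed level was 7776 to 8153 CPM in WT PBS, 8138 to 8894 in WT Tau, 6816 to 8529 in KO PBS and 8675 to 12245 in KO Tau. Nuclear-retained long RNAs, a sign of RNA composition, had 9 of 11 above 0 (median 0.30), led by Miat (1.11, SE 0.52) and Meg3 (1.00, SE 0.39). Their median was 0.18 without KO Tau 711, 0.63 without KO Tau 712 and 0.37 in the 10-library fit.

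**Figure D3:**
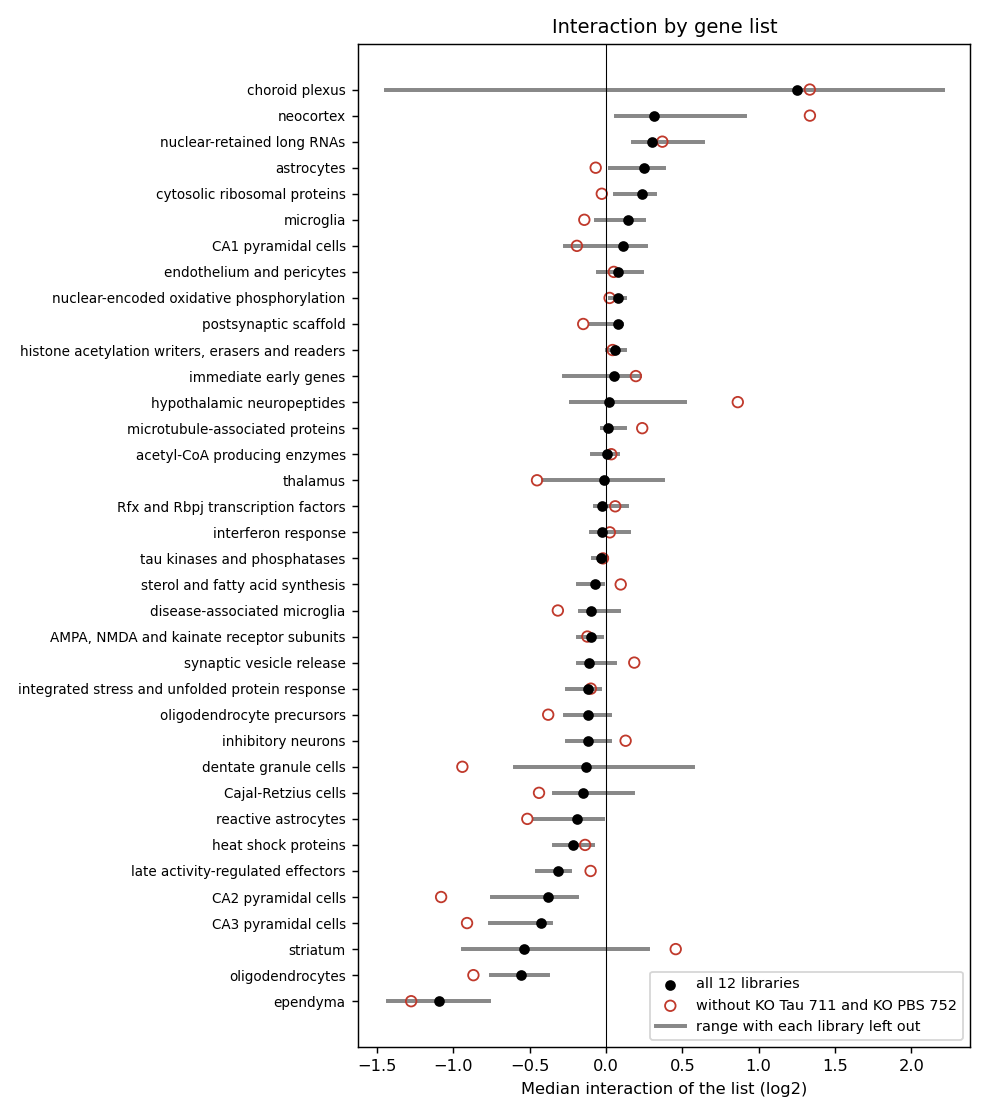
Median interaction (log2, horizontal axis) of 36 gene lists with at least 3 tested members: black points from all 12 libraries, grey bars the range over 12 fits that each left out 1 library, red circles from the fit without KO Tau 711 and KO PBS 752. The bars of 16 lists stay on one side of 0, and the choroid plexus bar runs from −1.44 to 2.21.

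In bulk tissue, fewer cells of a type and less RNA per cell cannot be told apart, which bears on every marker list that follows. Choroid plexus markers had the highest median, 1.25, with 13 of 14 above 0, and the widest errors: Ttr, the thyroxine carrier that choroid plexus secretes, had an interaction of 1.30 (SE 1.91). The summed level of the list was 226 to 322 CPM in WT PBS, 299 to 1113 in WT Tau, 321 to 487 in KO PBS and 337 to 5408 in KO Tau, and the median became −1.44 without KO Tau 713, the library with the highest level, and was 1.34 in the 10-library fit. Ependymal markers had 0 of 9 above 0 and a median of −1.09 (−1.28 in the 10-library fit, with 1 called lower), and Ccdc153, Tmem212, Cfap126 and 1700012B09Rik, which are expressed in cells with motile cilia, had unadjusted p-values under 0.05, with Tmem212 listed at 0 in at least 1 library. Ccdc153 was at 0.110, 2.38 and 1.85 CPM in WT PBS, 6.02, 6.41 and 4.48 CPM in WT Tau, 5.17, 1.21 and 6.13 CPM in KO PBS and 2.71, 1.88 and 2.54 CPM in KO Tau. WT Tau exceeded WT PBS in every library, and both PBS groups were uneven. WT PBS 791 lay far below the other WT PBS libraries, and KO PBS 752 below the other KO PBS libraries. With 1 library left out, the median of the ependymal list ran from −1.43 without KO Tau 713 to −0.77 without WT PBS 791. The summed level of the list was 56.9 to 70.9 CPM in WT PBS, 79.3 to 101 in WT Tau, 67.1 to 107 in KO PBS and 68.5 to 98.0 in KO Tau.

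Oligodendrocyte markers had 0 of 13 above 0 and a median of −0.56, which lay between −0.75 and −0.38 with 1 library left out and was −0.87 in the 10-library fit, with 2 called lower. Cldn11, the tight junction protein of myelin, was at −0.65 (SE 0.29). The median for tau was 0.50 in WT and −0.07 in KO. Astrocyte (11 of 12 above 0, median 0.25) and microglial markers (11 of 12, 0.14) had positive medians. These were 0.02 and −0.07 without KO Tau 711 and −0.07 and −0.14 in the 10-library fit, where 1 astrocyte marker was called lower.

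Markers of the hippocampal subfields and of neighbouring tissue varied from one KO library to the next. As the mean log2 CPM of a list less that of WT PBS, dentate granule markers were at 0.66, −1.30 and −0.55 in KO PBS and 0.22, −0.85 and −0.50 in KO Tau, while the 6 WT libraries lay between −0.24 and 0.14. Neocortex markers were at −0.88, 0.52 and −0.26 in KO PBS and −0.83, 0.59 and 0.48 in KO Tau, against −0.30 to 0.10 in WT. KO PBS 752 also had the highest level of striatal markers, at 2.10, and KO Tau 711 that of astrocyte markers, at 0.67. The interaction of the neocortex list had 12 of 12 above 0 with a median of 0.31, the dentate list 6 of 14 with −0.13, CA1 5 of 9 with 0.11, CA2 2 of 9 with −0.38 and CA3 1 of 10 with −0.42. Single libraries moved these medians. The neocortex median ran from 0.066 without KO Tau 712 to 0.91 without KO PBS 752, and the dentate median from −0.60 without KO Tau 711 to 0.57 without KO PBS 751. The CA1 median ran from −0.27 without KO Tau 712 to 0.26 without WT PBS 792. The CA2 median was −0.74 without KO PBS 752 and −0.19 without KO Tau 712, and the CA3 median −0.76 without KO Tau 711.

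**Figure D4:**
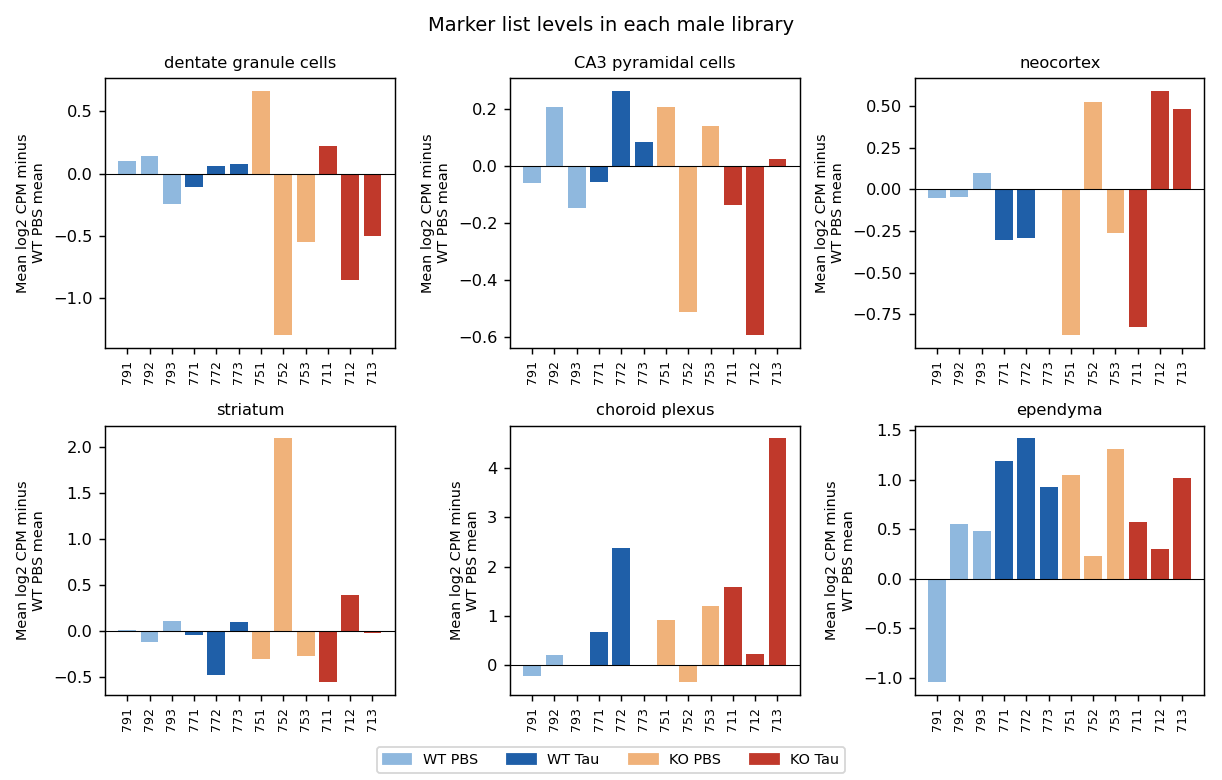
Mean log2 CPM of 6 marker lists in each of the 12 male libraries less the WT PBS mean (vertical axis, its range differing between panels), with bars coloured by group. KO PBS 752 stands apart for dentate (−1.30) and striatal (2.10) markers and KO Tau 713 for choroid plexus (4.62), and the KO libraries spread more widely than the WT libraries for dentate and neocortex markers.

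How far the count of 0 rests on single libraries was examined by leaving each out. edgeR called 0 genes in all 12 such fits, and the number at an unadjusted p under 0.05 ran from 317 without WT PBS 791 to 1412 without KO PBS 752. DESeq2 called genes in 6 of its 12 fits. Without KO Tau 711 it called 4 (0.0262%): Npas4 (1.90, adjusted p = 0.0415) and Vat1l (1.25) with a positive interaction, and Actn2 (−0.97) and Klhl29 (−0.70) with a negative one. Without KO Tau 712 it called 3 (0.0197%), which were Hspa12a, Stxbp2 and the predicted gene Gm7120, and Npas4 was not among them. Without WT Tau 773 it called 4 (0.0263%), which were Pak6, B4galt2 and Arhgap33 as higher and Dmkn as lower. Without KO PBS 751 it called 1 (0.00656%), Hspa12a.

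Larger counts came from leaving out KO PBS 753 or KO PBS 752. Without KO PBS 753, DESeq2 called 15 genes (0.0985%), 4 higher and 11 lower, led by Ubr3 (−0.46), Hspa12a (−0.56) and Kcnma1, the BK potassium channel (−0.55), with Hdac5 (0.59) among the higher ones. Without KO PBS 752 it called 81 (0.531%), 20 higher and 61 lower. The smallest adjusted p of those was that of Rerg (−1.50, adjusted p = 1.37e-05), and Grik4 (−1.21) and Ccdc3 (−1.08), members of the CA3 and CA2 lists, were called lower and the neocortex list gene Rorb (1.44) higher. Rorb, a marker of cortical layer 4, was at 20.0, 23.1 and 21.9 CPM in WT PBS, 15.9, 18.0 and 22.5 CPM in WT Tau, 13.2, 75.3 and 15.5 CPM in KO PBS and 25.4, 41.2 and 36.7 CPM in KO Tau. The KO PBS library that was left out held the highest Rorb level of all 12.

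**Figure D5:**
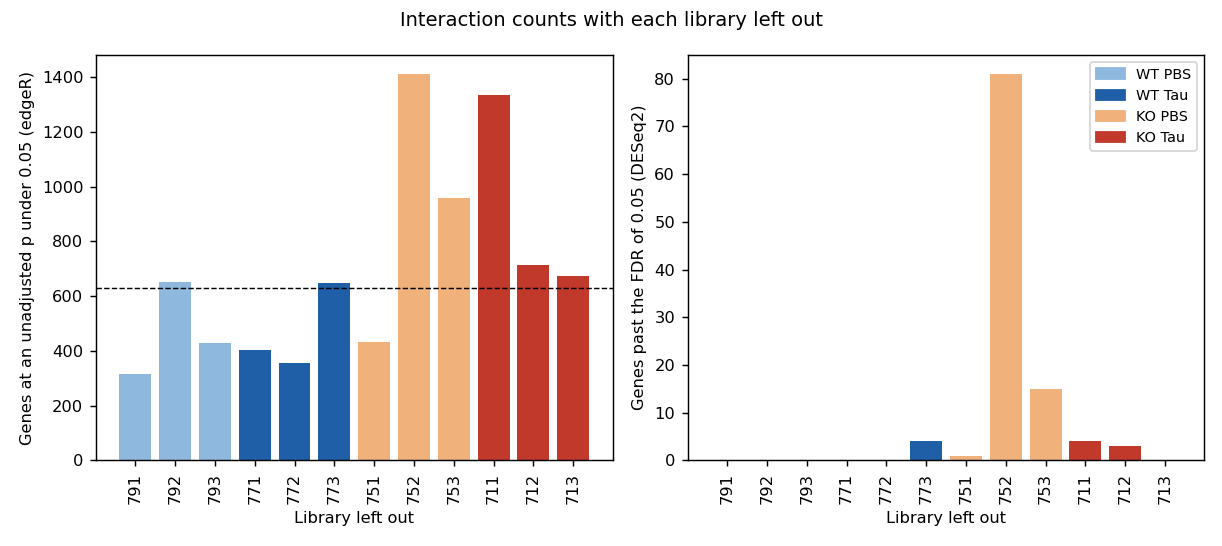
Number of genes at an unadjusted p under 0.05 by edgeR (left, dashed line at 631 for all 12 libraries) and past the FDR of 0.05 by DESeq2 (right) when the library named on the horizontal axis was left out, with bars coloured by that library's group. The counts are highest without KO PBS 752, at 1412 and 81.

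When 1 KO Tau and 1 KO PBS library were left out together, 8 of the 9 pairs gave 0 calls in edgeR and 1 pair, KO Tau 711 with KO PBS 752, gave 1044 of 15221 genes (6.86%), of which 468 were higher (3.07%) and 576 lower (3.78%). DESeq2 called 1445 genes there (9.49%). This setting, the 10-library fit used above, leaves 2 KO libraries in each arm. Since it was picked from these data, its calls do not hold the FDR. Among the ranked genes, 11 of 12 on the negative side passed (all but Lrrc74b) and 2 of 12 on the positive side, Pcdh15 and Tmem164, and Npas4 passed with an interaction of 1.87 (FDR 0.0331). These are the genes that the full set of libraries had already ranked, and the fits share 10 libraries.

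The calls of that setting stood beside differences in subfield markers between the libraries it kept. KO PBS 751 and 753 had neocortex scores of −0.88 and −0.26 and KO Tau 712 and 713 of 0.59 and 0.48, and the dentate scores of these libraries were 0.66 and −0.55 against −0.85 and −0.50. In it 6 of 12 neocortex markers were called higher (median 1.34) and 0 lower. Of the dentate markers 4 of 14 were called lower (median −0.94), of the CA3 markers 4 of 10 (median −0.91, with 1 higher) of the CA2 markers 3 of 9 (median −1.08, with 1 higher) and of the CA1 markers 4 of 9 (median −0.19, with 1 higher). The summed neocortex level over the 12 libraries was 709 to 729 CPM in WT PBS, 584 to 693 in WT Tau, 437 to 1136 in KO PBS and 431 to 1032 in KO Tau, and the summed dentate level 586 to 752, 631 to 707, 434 to 980 and 495 to 737 CPM in the same order. No defining marker of either list was at 0 in any of the 12 libraries. The part of the dissected regions in these calls was not tested.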

How the data were processed

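Per the labels and the study's methods, the authors aligned reads with STAR 2.5.2 to mm10 (GRCm38) and summed exonic reads by gene symbol with HTSeq 0.9.1, set to the reverse strand. The deposited table holds these raw read counts, not normalized. The annotation release is not given in the sources used here. The named library kit does not mark strand, while the authors' counting and coverage tracks treated the reads as stranded. Because these sources conflict, reads of a gene and of an overlapping antisense gene may not be told apart. Counts of near-identical copies are uncertain. Positions came from GENCODE on GRCm38 (98.4% of symbols matched).

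Libraries were grouped by their titles, which number each separately. Where nothing says more, p-values measure the spread between these samples. The smallest chi-square per gene between any of the 66 pairs of male libraries was 3.47, so each counted as 1 sample. The test was edgeR's (4.0.16, under R 4.3.3) quasi-likelihood F-test (TMM factors, filterByExpr with a minimum count of 10 and a minimum total count of 15, Benjamini-Hochberg at FDR 0.05), 1 fit of the 12 male libraries with 1 coefficient per group. The study's own test was the Wald test of DESeq2, here an alternative (DESeq2 1.42.0, same filter). The script was tested on simulated data. CPM are scaled to library totals, list scores average the log2 CPM of members (prior count 2), SE is the absolute log2 fold change over the root of F, and intervals are 95%. Intervals and the 3-count limit cover counting error only where they rest on counts of 1 library.

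Named genes were 13 genes tied to the study (Acss2, Mapt and genes of its text), the 12 genes per direction with the smallest p among those with a mean of at least 1 CPM (predicted genes, Rik and mitochondrial genes left out), up to 4 members per list with the largest estimates, and genes called by DESeq2 with all or with 1 library left out. Other list members named beside their list (such as Fos, Egr1, Ep300, Crebbp, Acly, Acss1, Crat and Ttr) were chosen after their values were seen. The members and the 37 lists were chosen with earlier results of these data known. Alternatives were RLE factors, library totals, no filter, all 17 libraries, voom with quality weights and limma trend (limma 3.58.1), 1 surrogate variable (sva 3.50.0), dentate and choroid plexus scores as covariates, and each library left out. A comparison of motifs with the interaction over all genes was void, because 79.3% of tested genes had a promoter window, under the 80% required.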

Additional observations from a re-analysis of the deposited data

Results flagged for a closer look

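In 8 of the named genes every KO Tau library moved one way from every KO PBS library and every WT Tau library the opposite way from every WT PBS library. The interaction was 0.80 for Tmem164, 0.71 for Kiss1r, 0.45 for Car11, −2.56 for Crocc2, −1.97 for Lrrc74b, −0.86 for Fgf5, −1.12 for Cd24a and −3.63 for Dmkn, which had a mean of 0.842 CPM. The difference between the genotypes was tested by the interaction in edgeR and did not pass the FDR for any of the 8 (all 0.996). The first 7 come from the ranking by that same contrast and Dmkn from a call by DESeq2 on it with 1 library left out. Over all tested genes such complete reversals numbered 28 with KO higher (0.185%) and 22 with KO lower (0.146%). Whether these shares exceed what random order of the libraries gives was not tested, and nothing is read from the 8 genes.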

How the results depend on the processing

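No paired analysis was possible because the groups compared share no replicate numbers. edgeR called 0 genes with RLE factors, library totals, no filter, all 17 libraries, a surrogate variable and either marker covariate, as did limma trend and voom (with a weight per library or per genotype). An unadjusted p under 0.05 was reached by 1961 genes with voom quality weights, 1224 with the surrogate variable and 1087 with the dentate score, and 267 to 1412 with 1 library left out over edgeR and DESeq2, which then called 0 to 81. With pairs of KO Tau and KO PBS left out, an added setting, it was reached by 991 (711 and 751), 3382 (711 and 752, with 1044 called), 1675 (711 and 753), 521 (712 and 751), 1275 (712 and 752), 1183 (712 and 753), 529 (713 and 751), 1190 (713 and 752) and 930 (713 and 753), and 2975 by DESeq2 without 711 and 752, with 1445 called. The 5 female libraries fitted alone in edgeR gave 0 calls and 308 genes under that p, against 1 call in the fit of 17. Signs were compared gene by gene in DESeq2, voom with quality weights, limma trend, the edgeR fits with 1 library left out and the edgeR fit without 711 and 752. None of the 24 ranked genes changed sign in these, and the same contrast had chosen them. Of the other named genes, signs turned for Rfx3 with limma trend (0.020), for Rfx7 (0.15), Rbpj (0.15) and Lingo1 (0.12) with voom weights, and without 711 and 752 for Rfx7 (0.15), Rbpj (0.18), Lingo1 (0.25) and Ncam2 (0.061). With 1 library left out the estimates of the genes that turned ran from −0.070 to 0.10 for Mapt, −0.61 to 0.65 for Rfx3, −0.17 to 0.064 for Rfx7, −0.22 to 0.058 for Rbpj, −0.17 to 0.11 for Dab1, −0.047 to 0.50 for Grik1, −0.36 to 0.078 for Lingo1 and −0.41 to 0.037 for Ncam2. Library totals moved the median of all genes by 0.03. The causes of these changes were not tested.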

Other observations

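The female libraries, which the interaction did not use, hold the genotype comparison under tau. Of the 12 genes ranked first with a positive interaction in males, 10 had a higher estimate in female KO Tau (3 libraries) than in female WT Tau (2 libraries), with a median log2 difference of 0.11, and of the 12 with a negative interaction 6 were above 0 and 6 below, with a median of 0.04. The share of all genes above 0 in this female contrast was not counted, and nothing is read from these numbers. None of the 24 passed the FDR in edgeR in females, and 5 had an unadjusted p under 0.05. The only gene that passed in the fit of all 17 libraries was Acss2 (−2.86, SE 0.23), with 609 genes at an unadjusted p under 0.05. Actn2 was at 6.08 and 12.5 CPM in female WT Tau and 9.94, 7.11 and 7.03 CPM in female KO Tau, with the groups overlapping. Hspa12a was at 188 and 282 CPM in female WT Tau and 264, 260 and 222 CPM in female KO Tau, the KO values all between the WT values. Car11 was at 108 and 105 CPM in female WT Tau and 138, 132 and 117 CPM in female KO Tau. Cyp4f15 was at 20.2 and 15.6 CPM in female WT Tau and 23.2, 21.9 and 21.5 CPM in female KO Tau. How many of all genes are ordered as these 2 are was not counted, and nothing is read from the order. In males the genotype difference under tau had a median of 0.32 for the first 12 genes and of −0.54 for the second 12, a contrast that shares its libraries with the interaction.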
